A study of Mus musculus with 16 samples.

Results

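The Wnt genes examined were 46 named members of the pathway, out of the 21631 protein-coding genes that were placed on the autosomes or the X chromosome. They belong to its extracellular and receptor layers, except Axin2, a target gene of the pathway. The selection was by name and not by any measured value: 19 Wnt ligands, 4 R-spondins, 12 receptors (10 Frizzled genes, Lrp5 and Lrp6), 10 secreted antagonists and Axin2. What was measured is H3K27me3, a histone mark laid down by the Polycomb enzyme EZH2 and found over silenced genes, by chromatin immunoprecipitation and sequencing (ChIP-seq). The cells came from spleens of C57BL/6 mice, 6 to 8 weeks old, from which B cells were isolated by CD43 bead separation, and were cultured for 48 hours in 2 ng/mL BAFF and 2 ng/mL IL-4. Cells were either wild type (WT) or from the Ifih1/Rigi/cGAS triple mutant, which is changed in 3 cytosolic sensors of nucleic acids, and received DMSO, the solvent, or GSK343, an inhibitor of EZH2, at 1 µM. The labels do not say what kind of mutation each allele is or how many mice gave each sample.

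Genotype and treatment gave 4 groups, each with 2 ChIP samples, 2 inputs and 1 deposited list of broad peaks, whose peak names refer to pooled duplicates. There is thus no replicate for any value below, the read depth behind each list is unknown from the files, and differences between lists were described and not tested. The lists held 39495 and 11903 peaks for WT in DMSO and GSK343, and 49803 and 10847 for the mutant, which covered 84.3, 21.1, 134 and 16.95 Mb in that order. A peak list from bulk cells cannot separate fewer cells that carry the mark from less of the mark in each cell. As a check of the labelled cell type, 7 B cell genes (Cd79a, Cd79b, Ms4a1, Pax5, Ebf1, Cd22 and Blnk) had 0 peaks in the 4 lists, while peaks lay at 6, 4, 6 and 3 of 7 T cell genes and at 3, 3, 4 and 1 of 6 myeloid genes (WT DMSO, WT GSK343, mutant DMSO, then mutant GSK343). Over all genes, 43.5, 26.3, 48.9 and 24.4% had a peak in that order. The T cell gene Cd8a and the myeloid genes Csf1r and Itgam also had none in any list. Absence of a peak was thus not particular to the B cell genes. Expression was not analysed here.

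Wnt proteins are secreted, lipid-modified ligands that bind a Frizzled receptor together with the co-receptors Lrp5 or Lrp6, which stabilises β-catenin and lets it act with TCF/LEF factors on target genes such as Axin2. Sfrp proteins, Frzb and Wif1 bind Wnt proteins outside the cell, Dkk1, Dkk2 and Dkk4 block the co-receptors, and R-spondins strengthen the signal by way of the Lgr receptors. Many of these genes are active only at set times and places in the embryo and have promoters rich in the dinucleotide CG, a sequence feature of many Polycomb targets.

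The promoters of 4 members show the range of what was found at Wnt start sites. They were chosen after their values were seen, and each runs from 250 bases before to 50 after the start (RefSeq, GRCm38.p6), 5′ to 3′ on the strand of the gene, with every CG in capitals. Wnt9a (chr11:59306680-59306979, plus strand, 58 CG) had a peak in each of the 4 lists. Wnt8b (chr19:44493222-44493521, plus strand, 6 CG) and Fzd7 (chr1:59481897-59482196, plus strand, 24 CG) had a peak in both DMSO lists and in neither GSK343 list. Fzd5 (chr1:64737701-64738000, minus strand, 38 CG) had none in any list.
Wnt9a: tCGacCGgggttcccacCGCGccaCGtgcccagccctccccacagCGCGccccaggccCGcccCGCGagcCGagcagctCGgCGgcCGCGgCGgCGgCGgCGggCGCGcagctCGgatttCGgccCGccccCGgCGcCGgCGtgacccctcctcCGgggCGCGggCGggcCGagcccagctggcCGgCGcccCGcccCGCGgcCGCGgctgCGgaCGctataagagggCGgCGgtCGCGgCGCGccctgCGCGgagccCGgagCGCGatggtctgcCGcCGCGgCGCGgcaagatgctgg
Wnt8b: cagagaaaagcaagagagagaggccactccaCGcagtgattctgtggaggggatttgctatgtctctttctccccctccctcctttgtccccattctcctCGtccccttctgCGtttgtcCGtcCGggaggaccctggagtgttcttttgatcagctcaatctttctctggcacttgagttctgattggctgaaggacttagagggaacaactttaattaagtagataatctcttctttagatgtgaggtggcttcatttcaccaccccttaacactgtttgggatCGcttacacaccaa
Fzd7: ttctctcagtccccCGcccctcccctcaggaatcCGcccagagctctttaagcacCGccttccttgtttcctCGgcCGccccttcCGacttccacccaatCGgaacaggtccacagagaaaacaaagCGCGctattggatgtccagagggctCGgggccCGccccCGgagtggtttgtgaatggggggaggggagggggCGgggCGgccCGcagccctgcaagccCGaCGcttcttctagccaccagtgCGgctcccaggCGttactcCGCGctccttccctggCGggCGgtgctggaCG
Fzd5: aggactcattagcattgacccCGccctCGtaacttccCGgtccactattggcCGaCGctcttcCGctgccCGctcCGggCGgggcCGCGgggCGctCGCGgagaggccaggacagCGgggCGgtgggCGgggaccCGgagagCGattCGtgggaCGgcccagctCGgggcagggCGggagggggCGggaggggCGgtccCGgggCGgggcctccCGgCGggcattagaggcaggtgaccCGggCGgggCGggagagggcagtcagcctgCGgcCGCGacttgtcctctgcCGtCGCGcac
Fzd5, without a peak, thus held more CG than Fzd7 and Wnt8b, which had peaks under DMSO.

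For each gene, the share of its window (the gene body plus 5 kb on each side) that lay in peaks was computed in each list. Every run of 4 values below gives WT DMSO first, then WT GSK343, mutant DMSO and last mutant GSK343. A window with at least 1 bp in a peak was found for 44 of the 46 members in WT DMSO, against 43.5% of all genes, and for 44 in mutant DMSO, against 48.9%. Under GSK343 the count was 43 in WT, against 26.3%, and 43 in the mutant, against 24.4%. At least 50% of the window was covered for 15, 2, 20 and 2 members, against backgrounds of 5.16%, 1.35%, 7.85% and 0.994% of all genes. In gene bodies alone the GSK343 counts were 7 in WT, against 2.76% of genes, and 7 in the mutant, against 2.47%. With only peaks of a fold of at least 3 over background, the DMSO counts were 9 in WT, against 3.58%, and 12 in the mutant, against 4.82%. The median share over members was 31.2, 12.9, 43.6 and 11.6%, and over all genes it was 0 in each list. Genes with windows of similar length (10720 genes, between the quartiles of the members' lengths) were covered for 43.5, 24.9, 49.1 and 22.2%, close to the values for all genes. When at least 10% of the window was required, 26 members were covered in WT GSK343, against 8.56% of genes, and 25 in mutant GSK343, against 7.37%. Most Wnt genes thus had at least 1 bp in a peak in every list, and the median share was lower under GSK343.

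**Figure D1:**
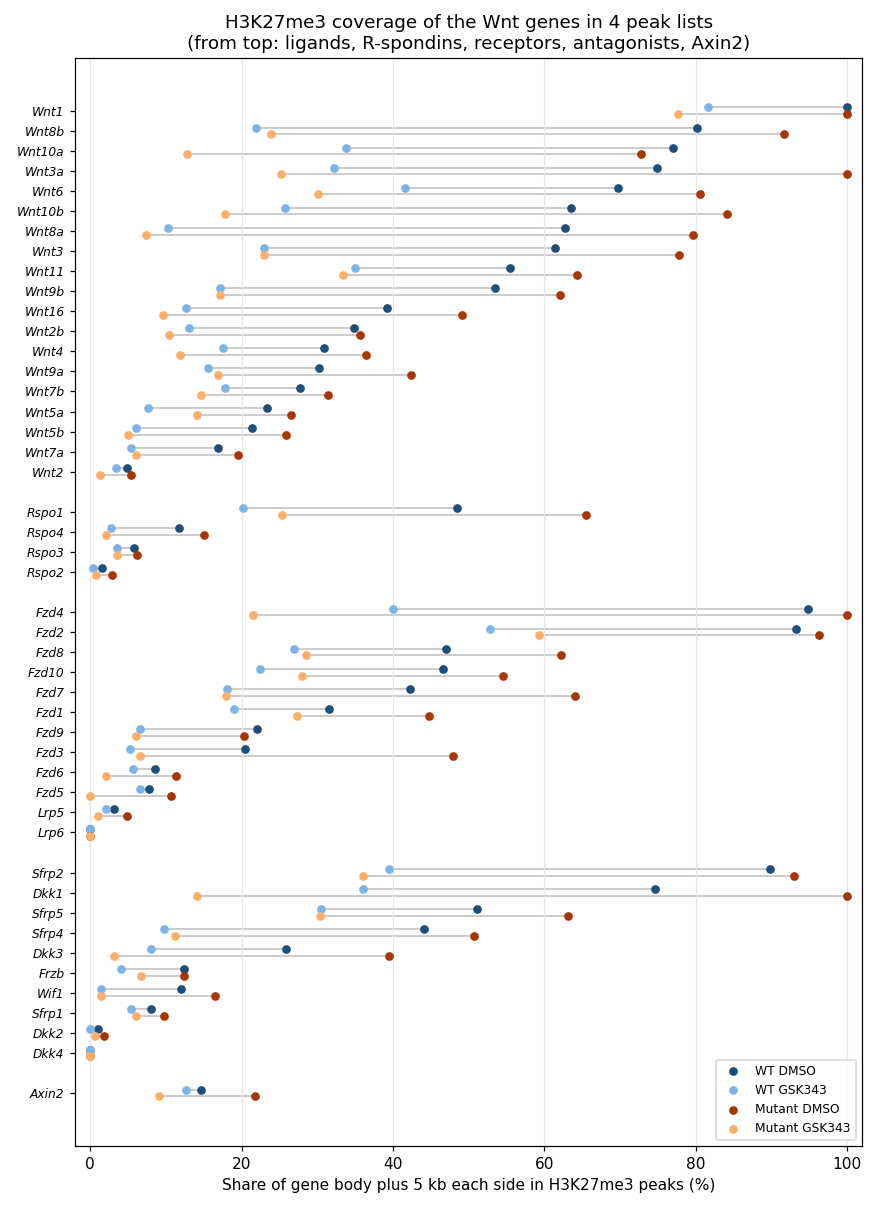
Share of each gene's window in H3K27me3 peaks (x axis, percent), 1 row per gene, with WT above and mutant below in each row and a grey line joining DMSO (dark) to GSK343 (light). Wnt1 stays at 81.6 and 77.7% under GSK343, while Lrp6 and Dkk4 lie at 0 in the 4 lists.

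The ligands were the most widely covered role in the windows with flanks. All 19 had a peak in each list, and their median share was 53.5, 17.5, 62.1 and 14.6%. Wnt1 (chromosome 15, 98789857 to 98793830), a ligand of midbrain patterning, had shares of 100, 81.6, 100 and 77.7%. Wnt8b, expressed in the developing forebrain, had 80.2, 21.9, 91.7 and 23.8%. Wnt10a, a ligand of tooth and skin development, had 77.0, 33.7, 72.8 and 12.8%. These 3 ligands were all high under DMSO and lay at different levels under GSK343.

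Wnt3a (chromosome 11, 59248036 to 59290751), which drives formation of the posterior body axis, was covered at 74.9, 32.2, 100 and 25.2%. For Wnt6 the shares were 69.8, 41.5, 80.6 and 30.1%, and for Wnt10b 63.5, 25.7, 84.2 and 17.9%. Wnt8a, an early embryonic ligand, had 62.8, 10.3, 79.7 and 7.33%, the lowest part kept of any ligand in either genotype. Wnt3, needed for gastrulation, had 61.4, 22.9, 77.8 and 23.0%. Each of these 5 genes was above 50% in both DMSO lists and below 50% in both GSK343 lists.

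Wnt11, a ligand of cell movement in the embryo, had 55.4, 35.03, 64.4 and 33.4%. Wnt9b, which acts in kidney tubules, had 53.5, 17.2, 62.1 and 17.1%, and Wnt16 had 39.2, 12.6, 49.1 and 9.65%. For Wnt2b the shares were 34.8, 13.0, 35.6 and 10.5%. All 4 of these ligands were lower in the GSK343 list of each genotype.

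Wnt4, which acts in kidney and female reproductive tract, had 30.9, 17.5, 36.5 and 11.9%, and Wnt9a had 30.2, 15.5, 42.4 and 16.9%. Wnt7b had 27.7, 17.8, 31.5 and 14.6%. Wnt5a, the best known ligand of β-catenin-independent signalling, had 23.3, 7.61, 26.6 and 14.1%. Its mutant GSK343 share was 6.53 percentage points above the WT one, the largest such difference among ligands.

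At the low end, Wnt5b had 21.4, 5.99, 25.9 and 4.93% and Wnt7a 16.9, 5.34, 19.6 and 6.00%. Wnt2 (chromosome 6, 17985474 to 18032772), a ligand of lung development, had 4.89, 3.39, 5.34 and 1.29%. Wnt2 was thus the one ligand under 10% in the 4 lists, with a single peak in each, and that peak was 2.80, 1.94, 3.06 and 0.739 kb wide.

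Of the R-spondins, Rspo1 (chromosome 4, 124986401 to 125009102) had 48.5, 20.2, 65.5 and 25.4%. Rspo4, which acts in nail formation, had 11.7, 2.75, 15.03 and 2.10%. Rspo3 had 5.81, 3.58, 6.18 and 3.48%. For Rspo2 the shares were 1.56, 0.371, 2.80 and 0.813%. Each of the 4 R-spondins kept a peak under GSK343 in both genotypes.

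The receptors ranged from Frizzled genes with broad cover to Frizzled genes and co-receptors with little or none. Fzd4 (chromosome 7, 89404366 to 89410110), the receptor for Norrin in retinal vessels, had 94.9, 40.04, 100 and 21.4%. Fzd2 (chromosome 11, 102604431 to 102608058) had 93.3, 52.8, 96.3 and 59.3%, so that Fzd2 and Wnt1 were the 2 members at least 50% covered under GSK343 in both genotypes. Fzd8 had 47.04, 26.9, 62.2 and 28.5%. Fzd10 had 46.6, 22.5, 54.5 and 27.99%.

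For Fzd7, a receptor of intestinal stem cells, the shares were 42.3, 18.1, 64.0 and 17.9%, and for Fzd1 31.6, 19.02, 44.8 and 27.3%. Fzd9 had 22.04, 6.59, 20.3 and 6.00%. Fzd3, which acts in axon guidance, had 20.4, 5.30, 48.0 and 6.57%. With all peaks used, its mutant DMSO share was 27.6 percentage points above that of WT, the largest such difference among the members. The mutant list had 14 peaks there against 8. With an equal number of top peaks in every list, the DMSO shares at Fzd3 were 12.9% in WT and 24.8% in the mutant. The gap at Dkk1, 56.5% against 100%, was then wider.

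Fzd6, which orients hair follicles, had 8.60, 5.66, 11.3 and 2.09%. Fzd5 (chromosome 1, 64730558 to 64737750), a receptor of intestine and eye, had 7.79, 6.51, 10.7 and 0%, and was the only member covered under GSK343 in WT and not in the mutant. With only peaks of a fold of at least 3 over background, Fzd5 had 0% in the 4 lists. The co-receptor Lrp5 (chromosome 19, 3584825 to 3686585) had 3.08, 2.03, 4.89 and 1.01%. In WT DMSO the Lrp5 share was 1 peak of 3.45 kb in a window of 112 kb. At Fzd9, 2.67 kb were covered in a window of 12.1 kb. Lrp6 (chromosome 6, 134446476 to 134566913) had 0% in the 4 lists. All 10 Frizzled genes but Fzd5 therefore had a peak in the 4 lists, while the co-receptors stayed under 5%.

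Among antagonists, Sfrp2 (chromosome 3, 83765750 to 83774314) was covered most in WT DMSO, with 89.8, 39.5, 93.04 and 36.04%. Dkk1 (chromosome 19, 30545876 to 30549496), an inhibitor needed for head formation, had 74.6, 36.1, 100 and 14.1%. Sfrp5 had 51.1, 30.5, 63.2 and 30.4%. With all peaks used, Dkk1 had the greatest genotype gap under GSK343 of all members, a mutant minus WT difference of -21.96 percentage points. Under DMSO its difference was 25.4 points. With a q-value of at most 0.01, the GSK343 shares at Dkk1 were 20.4% in WT and 10.9% in the mutant. The gaps at Fzd4 (40.04 and 14.6%) and Wnt10a (26.1 and 2.09%) were then wider.

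Sfrp4 had 44.1, 9.78, 50.7 and 11.3%. Dkk3, a divergent member of its family, had 25.9, 8.07, 39.5 and 3.17%. Frzb had 12.4, 4.07, 12.4 and 6.67%. The part of Dkk3 cover kept in the mutant, 0.0801 of the DMSO share, was the lowest of any antagonist, and that of Wif1 was 0.0869.

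Wif1 had 12.01, 1.38, 16.4 and 1.43%, and Sfrp1 had 8.05, 5.39, 9.80 and 6.08%. Dkk2 had 0.962, 0, 1.82 and 0.684%, and was the only member covered under GSK343 in the mutant and not in WT. With only peaks of a fold of at least 3 over background, Dkk2 had 0% in the 4 lists. Dkk4 (chromosome 8, 22623685 to 22628018) had 0% in the 4 lists. Axin2 (chromosome 11, 108917828 to 108950783), a negative regulator that the pathway itself induces, had 14.6, 12.7, 21.7 and 9.02%. The ratio of GSK343 to DMSO share at Axin2 was 0.871 in WT, the highest among the 36 members with at least 10% under DMSO, and 0.416 in the mutant.

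Whether ligands stood above receptors depended on the window. With flanks, the medians of receptors were 26.8, 12.4, 46.4 and 12.3%, below those of ligands, and those of antagonists were 19.1, 6.73, 27.98 and 6.38%. In gene bodies alone, receptors had the highest medians, with 63.2, 26.3, 75.5 and 37.2%, against 47.7, 14.2, 59.7 and 15.002% for ligands and 15.9, 4.95, 24.6 and 4.46% for antagonists. Receptor gene bodies were short, with a median of 5.28 kb against 22.9 kb for ligands and 22.5 kb for antagonists, so that the flanks made up a median of 65.5% of a receptor window and 30.4% of a ligand window. The body of Fzd2 was covered at 100, 100, 100 and 98.98%, that of Fzd8 at 95.0, 68.9, 100 and 63.4%, and that of Fzd9 at 79.8, 30.7, 72.7 and 34.4%. Antagonists had the lowest medians of the 3 roles in both windows and in the 4 lists, and the order of ligands and receptors reversed.

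**Figure D2:**
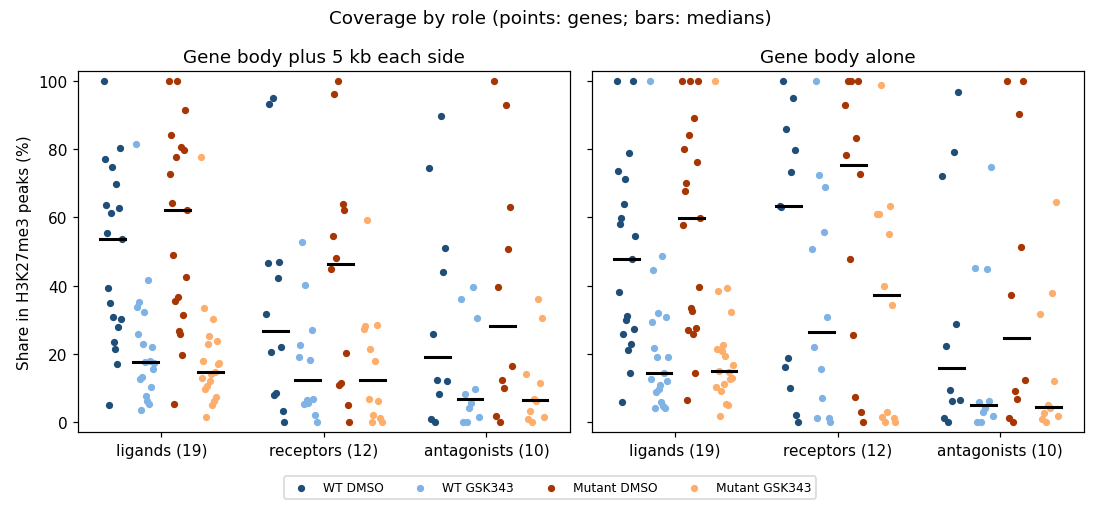
Share in H3K27me3 peaks (y axis, percent) of ligands, receptors and antagonists in the 4 lists, with 1 point per gene and black bars at the medians, for windows with 5 kb flanks (left) and gene bodies alone (right). The receptor median in WT DMSO is 26.8% with flanks and 63.2% without, while the ligand median is 53.5 and 47.7%.

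The inhibitor comparison was read as the ratio of the GSK343 to the DMSO share, for genes with at least 10% under DMSO. The median ratio of 36 members in WT was 0.419, against 0.294 over 4503 genes, and that of 38 members in the mutant was 0.295, against 0.114 over 5775 genes. The ratio was at most 0.5 for 25 of 36 members in WT (69.4%), against 75.7% of all genes, and for 31 of 38 in the mutant (81.6%), against 90.4%. These shares lie near the background. The 11 members that kept a ratio above 0.5 in WT were Axin2, Wnt1, Wnt7b, Wnt11, Fzd1, Sfrp5, Wnt6, Fzd8, Wnt4, Fzd2 and Wnt9a. In the mutant they were 7, namely Wnt1, Fzd2, Fzd1, Frzb, Wnt5a, Wnt11 and Fzd10, so that Wnt1, Wnt11, Fzd1 and Fzd2 kept a ratio above 0.5 in both genotypes. With a q-value of at most 0.01, Wnt6 in WT and Fzd2 and Wnt5a in the mutant fell below 0.5. Wnt7b in the mutant rose above it. Mutant DMSO and GSK343 shares were then 96.3 and 35.4% for Fzd2 and 26.6 and 8.28% for Wnt5a.

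Complete loss of peaks was rare among the members. No member with at least 10% under DMSO had 0 peaks under GSK343 in WT, against 17.9% of all such genes, and Fzd5 alone did in the mutant, against 33.2%. Of members with any peak under DMSO, 43 of 44 kept one in WT, against 60.1% of genes, and 43 of 44 in the mutant, against 49.6%. With only peaks of a fold of at least 3 over background (a value the authors give with every peak), 39 of 42 members kept a peak in WT, against 78.8% of genes, and 38 of 41 in the mutant, against 65.6%. By role, the median ratios were 0.389 (ligands), 0.456 (receptors) and 0.328 (antagonists) in WT and 0.295, 0.288 and 0.222 in the mutant. The range within each role, 0.164 to 0.816 for ligands in WT, was wider than these gaps.

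The widest peak at each covered member was narrower under GSK343 at the median, in both genotypes. Its median width was 8.40, 3.01, 11.8 and 3.03 kb, against 3.66, 2.10, 4.99 and 1.84 kb over all genes with a peak. Over whole lists, the median width of all peaks was 936, 1052, 1125 and 915 bp, so it was higher under GSK343 in WT and lower in the mutant. Under DMSO a peak wider than 10 kb touched 18 of 44 covered members in WT, against 16.1% of covered genes, and 24 of 44 in the mutant, against 26.1%. It touched 0 of 43 in either GSK343 list, against 3.16% in WT and 1.87% in the mutant, and the members' widest were 9.80 kb in WT and 8.23 kb in the mutant, both at Wnt7b. The window was covered in full at Wnt1 in WT DMSO, and at Wnt1, Wnt3a, Fzd4 and Dkk1 in mutant DMSO.

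The ligand genes include 4 neighbouring pairs whose windows share bases or peaks, so their values are not independent. Wnt10b and Wnt1 (chromosome 15, 98770712 to 98793830) were joined by 1 peak that ran from inside Wnt10b past Wnt1, 35.1 kb wide under DMSO in WT and 36.9 kb in the mutant. From the first base of the pair to the last, cover was 79.95, 51.6, 93.5 and 42.3%, in 2, 4, 2 and 4 peaks. Wnt3a and Wnt9a (chromosome 11, 59248036 to 59333552) were covered at 61.5, 29.9, 81.1 and 26.8%. A single mutant DMSO peak of 78.0 kb reached from beyond Wnt3a into Wnt9a, where the widest WT DMSO peak was 15.6 kb, and no GSK343 peak touched both windows. The pair held 9, 9, 3 and 8 peaks.

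Wnt6 and Wnt10a (chromosome 1, 74754342 to 74804176) were covered at 76.6, 37.1, 81.1 and 27.2%, in 6, 10, 4 and 8 peaks. Wnt9b and Wnt3 (chromosome 11, 103727362 to 103818021), whose gene models overlap by 1.10 kb, were covered at 58.6, 18.05, 71.0 and 17.7%, in 14, 5, 11 and 6 peaks. In each of the 4 pairs both GSK343 lists held less cover than the DMSO list of the same genotype, and in 3 of them the cover was in at least as many peaks.

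**Figure D3:**
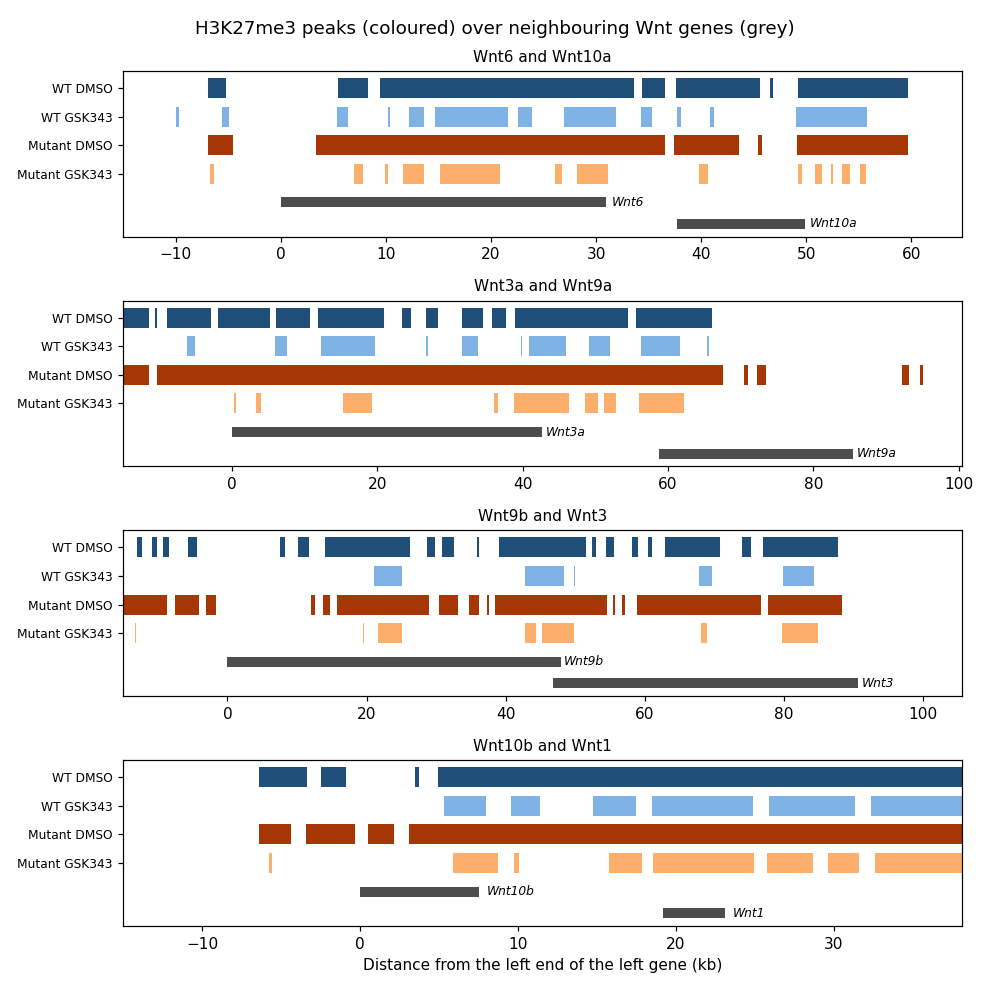
Peaks of the 4 lists (coloured bars) over the 4 neighbouring pairs of ligand genes (grey bars), with the distance from the left end of the left gene in kb on the x axis. The mutant DMSO list has 1 peak of 78.0 kb over Wnt3a that reaches Wnt9a, where the WT DMSO list has 9 peaks over the pair.

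Start sites could be placed for 30 of the 46 members, those with a RefSeq promoter entry. Within 2 kb of the most upstream listed start, the mean share in peaks was 88.0, 61.9, 92.2 and 61.5%, and beyond 10 kb, out to 20 kb, it was 21.2, 7.97, 28.5 and 7.42%. GSK343 cover near the start was 70.3% of DMSO cover in WT and 66.7% in the mutant, while farther out it was 37.6% and 26.0%. Over 17274 protein-coding genes with an entry, the same values were 51.9% and 38.4% near the start, and 25.1% and 12.6% farther out. Cover kept under GSK343 was thus higher near starts than far from them at the members, as it was over all genes.

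**Figure D4:**
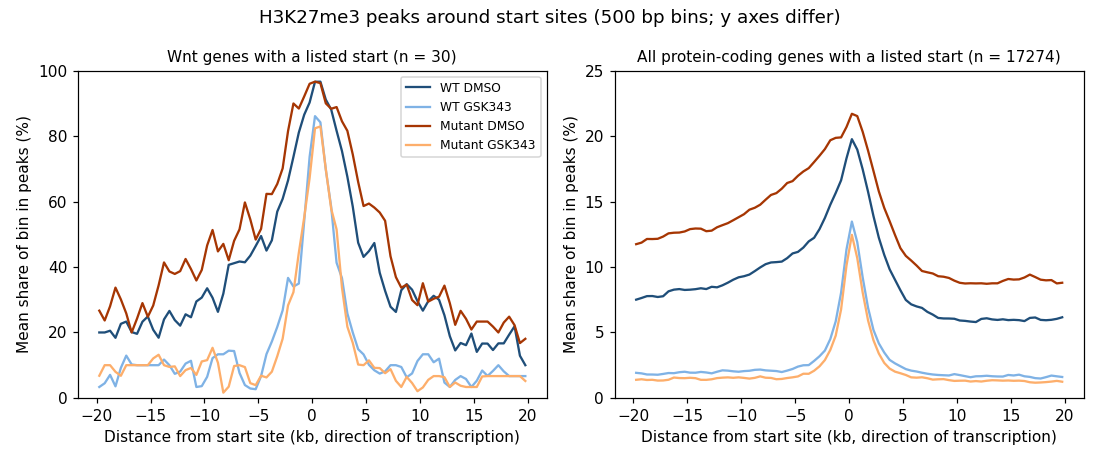
Mean share of 500 bp bins in peaks (y axis, percent) by distance from the start site (x axis, kb, positive in the direction of transcription), for 30 members (left) and 17274 genes (right, with its own y axis), 1 line per list. The member lines peak at 96.7% in both DMSO lists and at 86.1% (WT) and 83.0% (mutant) under GSK343, within 1 kb of the start.

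Single members varied around this mean. The 4 kb around the start were covered in full for 19 of the 30 members in WT DMSO, against 8.37% of the 17274 genes, and for 25 in mutant DMSO, against 11.4%. Under GSK343 they were so for 5 in WT (Wnt4, Wnt6, Wnt9a, Fzd4 and Sfrp2), against 1.51%, and for 4 in the mutant (Wnt3a, Wnt6, Wnt9a and Sfrp2), against 1.02%. At Wnt8b the 4 kb were covered at 58.1, 0, 79.3 and 12.1%, although 21.9 and 23.8% of its window remained covered under GSK343. For Axin2 the 4 kb had 55.5, 45.1, 100 and 54.4%. Fzd5 had 6.05, 11.1, 5.55 and 0%, the lowest value of the members in both DMSO lists.

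**Figure D5:**
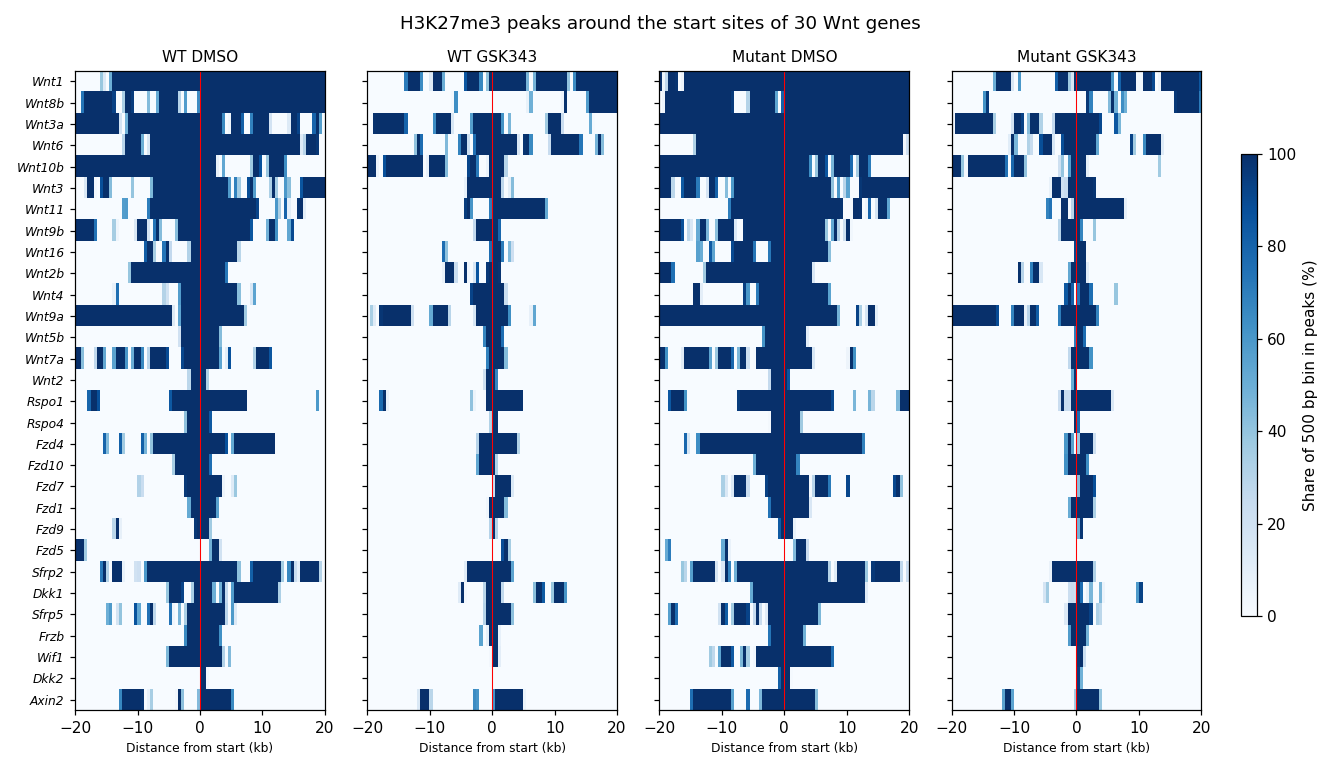
Share of each 500 bp bin in peaks (colour, percent) within 20 kb of the start (red line) for 30 members, 1 row per gene in the same order as in the plot of all members, and 1 panel per list. Within 20 kb of the start, 39.1% of the members' cover in WT GSK343 and 42.4% in mutant GSK343 lies within 2 kb, and Wnt8b and Dkk2 have none within 2 kb of it in WT GSK343.

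The promoters themselves, 300 bases long, numbered 33 for these 30 members because Wnt11 and Wnt5b have more than 1 entry. A peak touched 31 of the 33 in WT DMSO, against 20.3% of 21045 promoters of protein-coding genes, and 31 in mutant DMSO, against 22.2%. Under GSK343 it touched 27 in WT, against 13.6%, and 26 in the mutant, against 12.6%. Of the 31 promoters with a DMSO peak, 27 (87.1%) kept one in WT, against 66.6% of all promoters with a DMSO peak, and 26 (83.9%) in the mutant, against 56.4%. The 4 that did not in WT were those of Wnt8b, Fzd7, Dkk2 and Axin2, and the 5 in the mutant were those of Wnt8b, Wnt4, Fzd4, Fzd7 and Fzd9. In WT GSK343 the 4 kb around the start were still covered at 45.1% for Axin2 and 40.4% for Fzd7. For Wnt8b and Dkk2 that cover was 0%. The promoters without a peak in any list were that of Fzd5 and 1 of the 3 of Wnt5b.

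Promoters of the members were rich in CG, searched as these letters, which read the same on both strands. The median was 27 CG in 300 bases, against 13 over all promoters. Of the 33, 9 held 40 or more, against 1081 of all 21045 promoters. Across all promoters, the share with a WT DMSO peak was 9.08% at 0 to 4 CG and between 21.0 and 29.7% in each group with more. Over all promoters with a DMSO peak, those that kept one under GSK343 held a median of 20 CG and those that did not 8, in WT and in the mutant alike. At the members, the medians were 29 for the 27 kept and 17.5 for the 4 lost in WT, but 26.5 for the 26 kept and 32 for the 5 lost in the mutant. The lost promoters of the mutant thus include CG-rich ones, Fzd9 with 53, Wnt4 with 51 and Fzd4 with 32, beside Wnt8b with 6, shown above. Lost here means only that no peak touched the 300 bases. The 4 kb around the start were still covered in mutant GSK343 at 80.05% for Wnt4, 69.3% for Fzd4 and 42.9% for Fzd7. That cover was 18.15% for Fzd9 and 12.1% for Wnt8b.

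Mutant and WT were set side by side at the same treatment. Under DMSO, cover was higher in the mutant for 40 of the 44 covered members, lower for 3 (Wnt10a, Fzd9 and Frzb) and equal for Wnt1. The shares of 90.9% higher and 6.82% lower lie near those of the 10883 genes covered in either list, 85.6% and 12.9%. The mutant minus WT difference had a median of 5.34 percentage points, against 3.03 over those genes. Mutant cover was at least 10 points higher for 15 of 44 members (34.1%), against 21.7% of those genes, and at least 10 points lower for 0, against 0.588%. With all peaks used, the 5 largest differences were at Fzd3 (27.6 points), Dkk1 (25.4), Wnt3a (25.1), Fzd7 (21.7) and Wnt10b (20.7). This order depended on the peaks used. With an equal number of top peaks, Fzd3 had 12.9% in WT and 24.8% in the mutant. Fzd4 then had 59.9 and 100%, and Wnt8a 43.0 and 79.7%. The mutant DMSO list is longer as a whole, and when both lists were held to an equal number of top peaks the count was 16 of 43 members, against 19.1% of genes. When only peaks of fold 3 or more were used, 10 of 42 members (23.8%) were that much higher, against 18.98% of genes. The margin over the background was smaller there. With the same filter, 2 of 42 members (4.76%) were at least 10 points lower, against 1.56% of genes.

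Under GSK343 the order was mixed. Cover was higher in the mutant for 17 members (38.6%) and lower for 27 (61.4%), against 34.1% and 65.8% of 6171 genes. The median difference was -0.62 percentage points, against -0.64 over those genes. Mutant cover was at least 10 points lower for 4 of 44 members (9.09%), against 6.95% of genes, and the differences were -21.96 points at Dkk1, -20.98 at Wnt10a, -18.6 at Fzd4 and -11.5 at Wnt6. It was at least 10 points higher for 0 members, against 1.33% of genes, and the largest excess was 8.25 points at Fzd1. With a q-value of at most 0.01, 1 of 39 members (2.56%), Wnt3a, was that much higher, against 3.13% of genes. These shares lie near the background, and the difference between treatments was not tested.

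The rest of the pathway was followed through 38 further genes. Of 17 that act in secretion or at the membrane, 15, 12, 16 and 12 had a peak. That is 88.2, 70.6, 94.1 and 70.6%, against 43.5, 26.3, 48.9 and 24.4% of all genes. Notum, an enzyme that inactivates Wnt proteins, had 61.1, 56.9, 69.7 and 44.8%, and Kremen2, a receptor for Dkk proteins, had 63.7, 53.4, 68.8 and 42.2%. Sost, an antagonist made by bone cells, had 57.2, 32.1, 64.8 and 28.9%. These 3 were the genes of that group at least 50% covered in WT DMSO, and Notum and Kremen2 were still so in WT GSK343.

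Of 17 intracellular components, 9, 5, 9 and 4 had a peak, which is 52.9, 29.4, 52.9 and 23.5%, near the 43.5, 26.3, 48.9 and 24.4% of all genes. Ctnnb1, which encodes β-catenin, Apc, Gsk3a, Dvl1, Dvl2, Dvl3, Bcl9 and Pygo2 had none in the 4 lists. The highest in the group was Pygo1, a nuclear cofactor of β-catenin, with 34.5, 13.7, 51.0 and 9.90%. All 4 TCF/LEF genes had a peak in the 4 lists, against those same shares of all genes. Windows of the TCF/LEF genes were long, with a median of 148 kb against 27.3 kb over all genes. Tcf7l2 had 25.4, 9.65, 35.4 and 6.48%, and Lef1 had 8.97, 4.80, 9.84 and 2.78%. Tcf7 had 8.70, 6.11, 12.3 and 5.62%, and Tcf7l1 had 3.93, 1.36, 3.70 and 0.514%. In WT DMSO the median share was 31.2% for the 46 members, 9.45% for the secretion and membrane genes, 8.84% for the TCF/LEF genes and 0.944% for the intracellular components. Their median windows were 32.8, 82.5, 148 and 39.2 kb in that order, and the part of gene length in these gaps was not tested.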

How the data were processed

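H3K27me3 ChIP-seq of mouse splenic B cells was analysed from 4 peak lists, 1 for each genotype and treatment, out of 16 samples (2 ChIP and 2 input per combination). The genotype and treatment of a list were read from its name. Peak names refer to pooled duplicates, per the file contents, but the prefix of the mutant peak names ends in 1, and whether those lists rest on replicate 1 is not given in the sources used here. The submitters' processing notes name Bowtie2 2.4.2, SAMtools 1.12, MACS2 2.2.7.1, bedtools 2.29.2, deepTools 3.5.1 and mm10, without settings, and blacklisted peaks had been removed, per the file names. The deposited fold over background is a linear ratio per peak. The deposited −log10 p-value and q-value of each peak were used only to rank and filter peaks.

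Genes and promoters came from RefSeq tables of GRCm38.p6, the same coordinates as mm10. For each gene, the percent of its window in merged peaks was computed and peak starts were shifted to count from 1. A gene was covered with at least 1 bp in a peak. A promoter entry existed for 30 members. Values over all genes are the background. One marker gene of the cell type check is not reported here. No test was made, since each group has 1 list. Covered lengths equalled those of bedtools 2.31.1 for 21631 of 21631 windows in each list, and 20 of 20 simulated sets were recovered. Python 3.11.15, numpy 2.4.6, pandas 2.3.3 and matplotlib 3.10.9 were used.

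The members, lists and alternatives were chosen with earlier results of these data known. Every member is named with its values, which goes beyond a rule that asked for the extremes of each role, with the other pathway genes given as counts, the TCF/LEF genes and those at least 50% covered in WT DMSO by value. Pygo1, Ctnnb1 and the other genes without a peak were named after their values were seen. The alternatives were gene bodies without flanks, a q-value of at most 0.01, a fold of at least 3, an equal number of top peaks (10847) in every list, and at least 10% of the window in peaks.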

Additional observations from a re-analysis of the deposited data

How the results depend on the processing

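Under 7 settings 24 results gave 108 alternative values, of which 87 stayed within 1.5 times the reported value, 21 moved further and 0 reversed. The median of each role was counted on its own. The order of ligands and receptors, which reversed in gene bodies alone, is therefore not part of that count. Holding every list to an equal number of top peaks moved none. Pairs of numbers below are WT, then mutant.

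With gene bodies alone, members at least 50% covered under GSK343 numbered 7 and 7, the receptor medians were 63.2 and 75.5% under DMSO and 26.3 and 37.2% under GSK343, and the median mutant minus WT difference under GSK343 was -0.20 points. With a fold of at least 3, members at least 50% covered under DMSO numbered 9 and 12, and 1 in mutant GSK343, the antagonist median in WT GSK343 was 4.36% and the median genotype difference under GSK343 was -1.03 points. With a q-value of at most 0.01, that antagonist median was again 4.36%, and 1 member was at least 50% covered in mutant GSK343. With at least 10% of the window required, 26 and 25 members were covered under GSK343.

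Settings chosen after seeing the data used the 30 members with a promoter entry. The 300 bp promoter was touched for 29 and 29 of them under DMSO and 25 and 24 under GSK343, and 28 were covered within 2 kb of the start in WT GSK343; fewer genes entered by construction. The cause of other changes was not tested.

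No paired analysis was possible because no list holds a value for a single replicate, and leaving out a replicate was not run. Read depth is unknown, and a gene without a peak is not shown to lack the mark.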
